A study of Homo sapiens with 2 samples.

Results

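The RNA level of parental Saos-2 cells was read from the Saos-2 channel of 2 spotted cDNA arrays, 1 for each biological replicate. Saos-2 is a human osteosarcoma cell line, a bone tumour line that keeps features of the osteoblast, the cell that makes bone. Each array carried 41568 spots, most of them cDNA clones, and every spot was hybridised with RNA of 2 lines at once. Saos-2-2 RNA always carried Cy5 and Saos-2 RNA always carried Cy3, with no dye swap. Saos-2-2 is a stable line grown from colonies of Saos-2 cells that had received a TSG101 shRNA together with a plasmid for GFP and puromycin resistance, and no line with a control shRNA was hybridised. Saos-2 cells are TSG101-proficient, and both lines were grown in DMEM with 10% FBS. The spots described are those that hold a clone and carried no flag on either array, which were 36227 of the 41568 spots. They were ranked within each array by net Cy3 intensity, the foreground mean less the median local background, and the 2 ranks were averaged. A level is given here as a percentile, in which 100 is the most intense spot of an array, and the level of a gene is the median over its spots.

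Osteoblasts secrete type I collagen, then the phosphatase and acidic proteins that let mineral form on it, under the control of the transcription factor RUNX2. Osteosarcomas keep part of this programme. In growing cells the messenger RNAs of the ribosome and of translation are among the most abundant. Many of these start with a cytosine and an unbroken run of pyrimidines, the terminal oligopyrimidine tract, through which growth signals control their translation.

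The intensity of a spot depends on the length and labelling of its clone as well as on the RNA, so that a percentile orders spots and is not a number of transcripts per cell. Of the spots described, 23214 had 1 gene name, for 13190 genes. Another 559 matched several genes and 12454 carried no gene name in the sources used here. The median level over all genes was 58.9, since named spots (median percentile 60.6) were more intense than those without a name (30.8). The fluorescent protein spots differed between the channels. The 2 eGFP spots read 550 and 1126 in Saos-2-2 on replicate 1, against 17 and 34 in Saos-2. On replicate 2 they read 1350 and 1871 in Saos-2-2, and 38 and 43 in Saos-2. Saos-2-2 is the line that received the GFP plasmid, and line and dye cannot be told apart here.

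Most of the clones gave a signal. The net intensity of the spots had a median of 137 on replicate 1 and 129 on replicate 2, the lowest spots were at 4 and 5, and the highest was at 28188 and 28695. No spot held saturated pixels. A foreground of at least 1.5 times the local background on both arrays was reached by 35250 spots, or 97.3%, and 283 spots (0.781%) stayed below that ratio on both. Over all 96 empty wells, flagged or not, the median net intensity was 2 and 3. The 40 spots named Alien, without human DNA, had a median of 7 on each array. Only 1 of the wells and 8 of the Alien spots were unflagged on both arrays. That well read 38 and 52, and these 8 Alien spots had medians of 20 and 18, within the range of the clone spots. The scanner's flags had taken out mostly dim spots. The 5115 clone spots left out (12.4% of the clone spots) had a median net intensity of 22 on each array, so that the spots that remain understate how many clones were near background. Signal was concentrated in few clones, and the most intense 1% of spots carried 13.1% of the summed net intensity on replicate 1 and 13.5% on replicate 2.

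**Figure D1:**
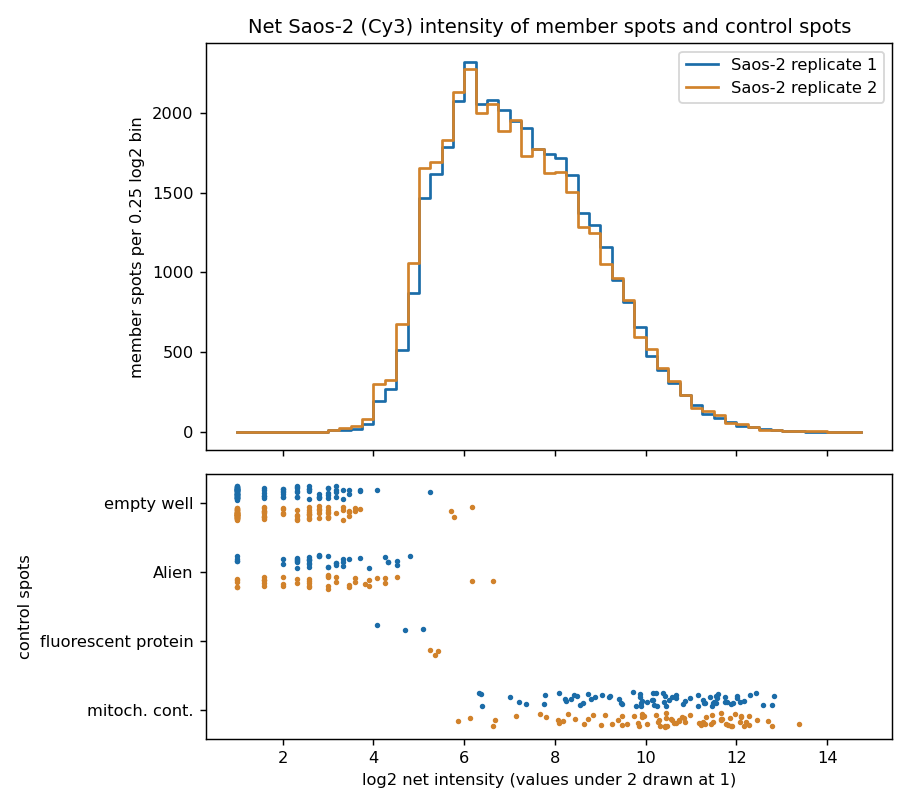
Upper panel, number of clone spots by log2 net Saos-2 intensity in each replicate. Lower panel, the control spots on the same axis, flagged ones included, 1 point per spot and replicate. Most empty wells and Alien spots, which were mostly flagged, lie left of most clone spots, whose medians are 137 and 129. The spots named mitoch. cont. reach the intense end of the range.

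The order of the spots held between the replicates. Spearman's rho of the net Saos-2 intensity between the arrays was 0.961 over the 36227 spots, which share print layout and base composition and are not independent replicates. A spot differed between the arrays by a median of 2.93 percentile points, and by 0.850 points in the most intense 10% of spots. The choice of clone moved a level more than the choice of array. Separate spots of the same clone differed by a median of 12.0 points over 1081 clones, and different clones of the same gene by 20.2 points over 5583 genes. A level that rests on 1 spot is therefore less certain than its agreement between arrays makes it look.

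EEF1A1, the elongation factor that brings aminoacyl-tRNA to the ribosome, was the most intense gene in Saos-2. Its 3 clones read 28188, 12013 and 8076 on replicate 1, and 28695, 15177 and 11197 on replicate 2. These were the first, the second and the ninth of all the spots by average rank. Transcribed or processed copies of EEF1A1 and of ribosomal protein genes are near-identical in sequence, so that a clone of one may capture RNA of another.

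Among the other genes of the 30 with the highest level, the small subunit proteins RPS3A (7756 and 7872), RPS12 (6171 and 7582), RPS6 and RPSA and the large subunit protein RPL31 made up 5 of the 30. CALR (4828 and 5511) and PPIB (4892 and 4669) fold newly made proteins in the endoplasmic reticulum, and PPIB acts on collagen chains. COL5A2 (7654 and 4864), a chain of type V collagen, and LUM, the small proteoglycan lumican that sits on collagen fibrils, belong to the matrix. LUM was high in each of its 4 spots, which hold 2 clones and read between 3824 and 6138 on replicate 1 and between 3108 and 5131 on replicate 2. CCN1, a secreted matrix protein, had spots at percentiles 93.6, 99.8 and 99.9. NOTUM, a secreted enzyme that inactivates WNT ligands, read 7446 and 7162 from its 1 clone. PTMA and NCL are abundant nuclear proteins, HNRNPA2B1 binds nascent RNA, SUMO2 is a protein modifier, and UBA2 is a subunit of the enzyme that activates it.

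TUBA4A, TPM3, CNN3 and STMN1 encode or regulate the cytoskeleton, PGAM1 is a glycolytic enzyme, and COX7C is a subunit of cytochrome oxidase. ANXA1 binds membrane phospholipids, RABGGTB is a subunit of the enzyme that prenylates RAB proteins, and AJAP1, read by a clone marked in the failed column of the deposited annotation, lies at cell junctions. MAGEA6 (4031 and 4464) and MAGEA8 (3694 and 3759) are cancer-testis antigens, normally kept to the germ line. ADNP, a nuclear protein, read 9933 and 8550 from 1 clone that carries such a mark too, and PWAR5, an RNA from an imprinted region, read 5207 and 5171 from 1 clone. Of the 30 genes, 23 rested on 1 spot. Taken as the median over a gene's spots, the net intensity of all 30 was at least 3204 on replicate 1 and 3671 on replicate 2. Only 7 of the 29 neighbouring pairs in their order stood in that order on both arrays, so that most neighbours could not be ranked against each other.

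The start sites of 7 translation genes and of NPM1, a nucleolar protein, are shown because many of them share the pyrimidine tract that the ranking did not use. Each line gives 10 bases before and 20 bases from the annotated start, from the RefSeq promoter table of GRCh38.p14, 5′ to 3′ on the strand of the gene. Capitals mark the cytosine at the start and the pyrimidines that follow without a break.
EEF1A1 (chr6:73521013-73521042, minus strand): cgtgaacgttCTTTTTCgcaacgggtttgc
RPS3A (chr4:151099618-151099647, plus strand): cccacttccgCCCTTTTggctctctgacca
RPS12 (chr6:132814559-132814588, plus strand): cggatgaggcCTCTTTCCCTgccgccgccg
RPS6 (chr9:19380217-19380246, minus strand): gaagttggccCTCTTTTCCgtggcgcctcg
RPL31 (chr2:101002279-101002308, plus strand): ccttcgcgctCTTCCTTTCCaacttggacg
RPSA (chr3:39406710-39406739, plus strand): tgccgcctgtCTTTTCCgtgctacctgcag
EEF2 (chr19:3985444-3985473, minus strand): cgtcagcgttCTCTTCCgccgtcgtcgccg
NPM1 (chr5:171387839-171387868, plus strand): agcctgcgtcCTTTCCCTggtgtgattccg

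The start sites of 4 intense bone genes are set beside them, and hold no such tract at the annotated start.
IBSP (chr4:87799544-87799573, plus strand): gtgaatgagtgagtgagagggcagaggaaa
ALPL (chr1:21508974-21509003, plus strand): atatgttgacagacacagagacagacgcca
GJA1 (chr6:121435636-121435665, plus strand): caagttacaaaaaagcttttacgaggtatc
SPARC (chr5:151686896-151686925, minus strand): gcggtccttcagactgcccggagagcgcgc

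A tract was counted where the annotated start was C and at least 4 further pyrimidines followed on the gene's own strand. It was present in 4.04% of the promoters of the table and in 5.06% of the 10530 measured genes that matched it. A tract stood at the start of 31 of the 46 ribosomal protein genes with a promoter there, and of 8 of 17 translation factors, of 4 of 33 oxidative phosphorylation genes and of 0 of 19 osteoblast genes. By level, 8.01% of the genes in the highest 10% held a tract, against 3.61% in the lowest 10%. Without ribosomal proteins and translation factors the highest 10% was at 5.91%. In the highest 1% of genes, 24 of 109 (22.0%) held a tract, and 13 of 94 (13.8%) without those 2 groups. Within the ribosomal proteins, the genes with a tract had a median level of 95.7 and the 15 without one had 96.1. A match is a description of the annotated start, which may differ from the start used in these cells.

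Other features of the promoter window and the gene also differed along the order. The median number of CpG dinucleotides in the window was 14 in the lowest 10% and 27.5 in the highest. The motif GGGCGG, searched on both strands, occurred in 47.6% of windows in the lowest 10% and 73.6% in the highest. It occurred in 65.5% of windows of all measured genes and in 44.6% of all promoters. TATAAA on both strands occurred in 9.69% and 6.80%, with 6.93% in all measured genes and 12.0% in all promoters. Its share did not fall steadily with level, and was 5.30% in group 8 of 10 and 11.9% in the highest 1% of genes. Genes annotated as lncRNA made up 8.19% of the lowest 10% and 0.682% of the highest. The median gene span was 28.005 kb in the lowest 10%, 36.4 kb in the fifth group of 10 and 22.7 kb in the highest.

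**Figure D2:**
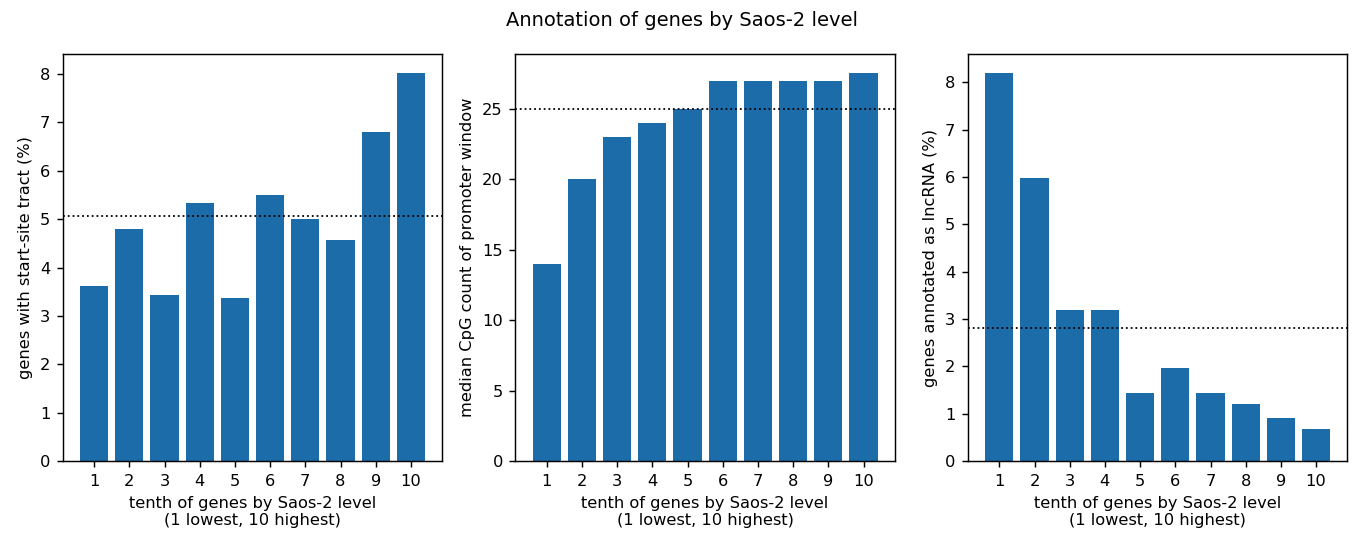
Annotation of 13190 genes in 10 groups of equal size by Saos-2 level (x axis, 1 lowest, 10 highest). Bars give the percentage of genes with a start-site pyrimidine tract, the median CpG count of the promoter window and the percentage annotated as lncRNA, and the dotted line gives the value over all genes. The tract reaches 8.01% and lncRNA genes 0.682% in the highest 10%.

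Genes were then read in lists for the work of the cell and for the cell types that could be present. All 13 lists of cellular and bone functions had a median above the 58.9 of all genes, and 8 of the 10 lists of markers of other cell types had a median below it. The cytosolic ribosomal proteins had a median of 96.5, and 39 of the 56 measured were in the highest 10% of genes. The lowest of them was RPL36, at 23.1, from a single spot with 50 and 68. RPL3 stayed near 25.4 in 3 spots that read between 53 and 64 on replicate 1 and between 58 and 74 on replicate 2.

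Translation factors had a median of 90.2, led by EEF1A1, EEF2 (3119 and 3203), the ribosome translocase, and the initiation factor subunit EIF3E, and their lowest gene was EIF3F at 64.2. Chaperones had a median of 97.3. After CALR and PPIB came PDIA4, which forms disulphide bonds, with 99.6, and the lowest was the cyclophilin PPIA at 53.5. Oxidative phosphorylation genes had a median of 93.2, with COX7C, SDHB (3377 and 3774) and CYC1 highest and NDUFS6 lowest at 13.3. Proteasome and ubiquitin genes had a median of 92.0, with PSMB4, UBB and UBA1 highest and PSMC5 lowest at 26.7. PSMC5 read 95 on replicate 1 and 44 on replicate 2.

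The actin and tubulin cytoskeleton had a median of 94.3, with TPM3, ACTN4, which crosslinks actin, and TUBB on top. VIM, the intermediate filament protein of mesenchymal cells, came last by the median rule, at 39.996, although 2 of its 5 spots were among the 29 most intense spots. Glycolysis had a median of 86.3, with PGAM1, ENO1 (4408 and 3870) and GPI (3551 and 2483) highest, and PKM, from 1 clone with 36 and 23, lowest at 5.12. Cell division genes had a median of 87.6. STMN1 (3962 and 4047), PCNA, the clamp of the replication fork, at 98.5, and the kinase CDK1, at 96.3, led them, and CCND1, cyclin D1, was lowest at 37.0. Histones and chromatin proteins had a median of 83.3, from PTMA, NCL and the nucleolar protein NPM1 (3250 and 3184) to HMGB3 at 34.2. The sorting complexes of the endosome, to which TSG101 belongs, had a median of 70.3, between SNF8 at 91.8, VTA1 and HGS on top and CHMP7 at 39.8.

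**Figure D3:**
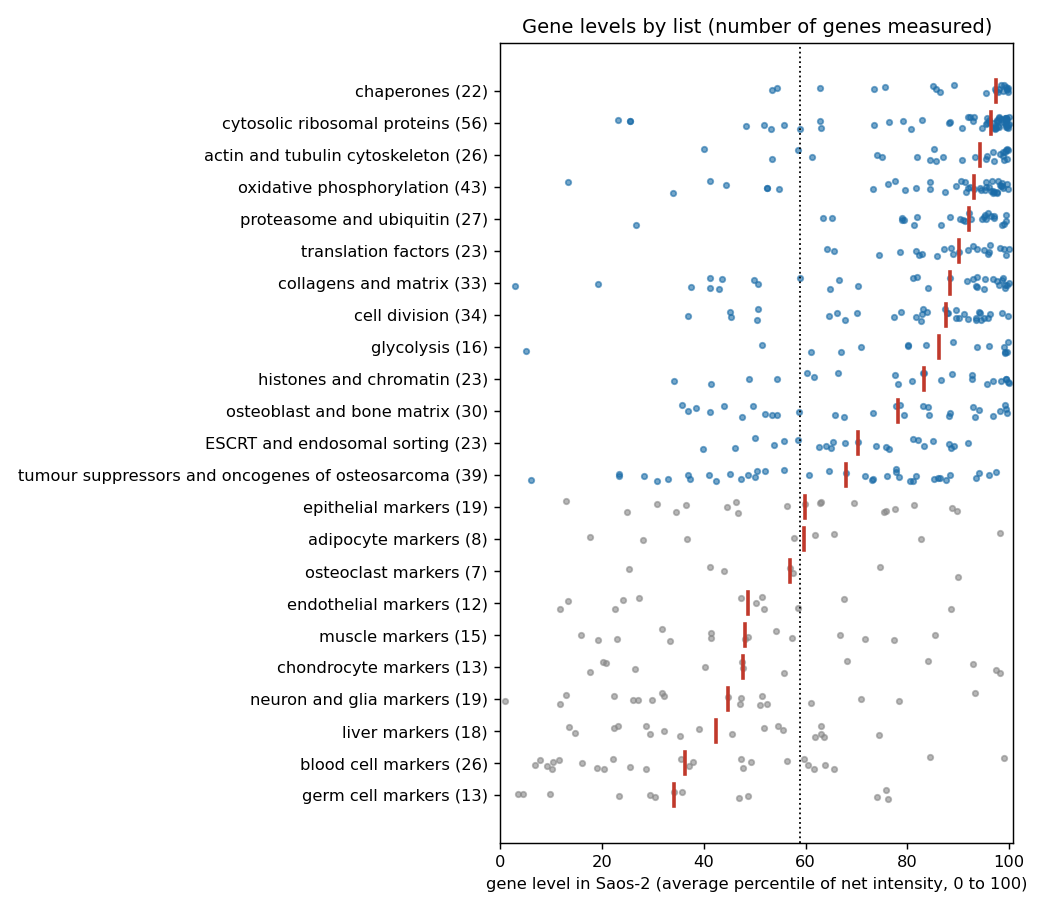
Level of each measured gene in Saos-2 (x axis, percentile of net intensity) by list, with the number of genes measured in brackets. Points are genes, red bars are list medians and the dotted line is the median of all genes, 58.9. Lists of markers of other cell types are grey, with medians from 34.0 (germ cell) to 59.9 (epithelial), and the other lists are blue, with medians from 68.0 to 97.3.

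The osteoblast genes were high for part of the list. The osteoblast and bone matrix list had a median of 78.1 over the 30 genes measured. All 55 of their spots were above background on both arrays, as were 97.3% of all spots. Of the 30 genes, 8 were in the highest 10% and 0 in the lowest 10%, and 19 were above the median gene. By spot, 37 of the 55 (67.3%) lay in the upper 50% of both arrays, as did 47.4% of all spots. The 47.4% includes spots without a gene name, which were dimmer (median percentile 30.8, against 60.6 for named spots), so the 2 shares are not like for like.

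Matrix and mineralisation genes were spread over the list. IBSP, bone sialoprotein, which binds hydroxyapatite and is made by mineralising osteoblasts, read 2667 and 3442. ALPL, the phosphatase that removes the mineralisation inhibitor pyrophosphate, read 2370 and 1598. COL1A1, the main chain of type I collagen, read 5866 and 4932 by 1 clone and 2553 and 1788 by the other. COL1A2, its partner chain, read 2576 and 1956 by 1 clone and 432 and 166 by the other. SPARC, the collagen-binding osteonectin, read 1768 and 1187. Each of these clones read above the medians of 137 and 129 on both arrays, the weaker COL1A2 clone by the least. GJA1, the gap junction protein connexin 43, had the highest level of the list, with 3513 and 3397.

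Receptors and transcription factors of the osteoblast were also measured. PTH1R, the receptor for parathyroid hormone, read 898 and 893, and DLX5, a homeobox factor upstream of bone genes, read 742 and 1066. RUNX2 read 726 and 744 by 1 clone and 563 and 701 by another, while the other clone read 95 and 198. TNFRSF11B, the decoy receptor osteoprotegerin, was at 88.2, and TNFSF11, the osteoclast-activating ligand it binds, at 41.2. CDH11, the osteoblast cadherin, read 534 and 520 on replicate 1 and 525 and 414 on replicate 2. The inhibitors and late markers came next, with MGP, matrix Gla protein, at 83.1 and DMP1, a protein of osteocytes, at 77.7.

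BMP4, a ligand that induces bone, read 3601 and 3752 by 1 clone and 169 and 173 by the other. CADM1, an adhesion molecule, spanned percentiles 20.3 to 97.7 over 7 spots, with a level of 64.8 on replicate 1 and 92.7 on replicate 2. Over all osteoblast spots, the difference between the arrays had a median of 2.02 points and a largest value of 70.0. VDR, the vitamin D receptor, was at 73.3 and SMAD1, which carries the BMP signal, at 67.5. BGLAP, osteocalcin, the late osteoblast hormone, read 229 and 228, at 65.8. Around and below the median gene were OMD at 58.7, BMP2 at 54.3, BMPR1A at 53.3, ANKH, the pyrophosphate transporter, at 52.0 (68.6 on replicate 1 and 44.5 on replicate 2), POSTN at 49.7, SMAD5 at 47.5, MSX2 at 44.0 and ENPP1 at 38.4. SPP1, osteopontin, read 102 and 76, at 36.9, and LRP5, the WNT co-receptor, was lowest at 35.7. Both BGLAP and SPP1 rested on a single clone.

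**Figure D4:**
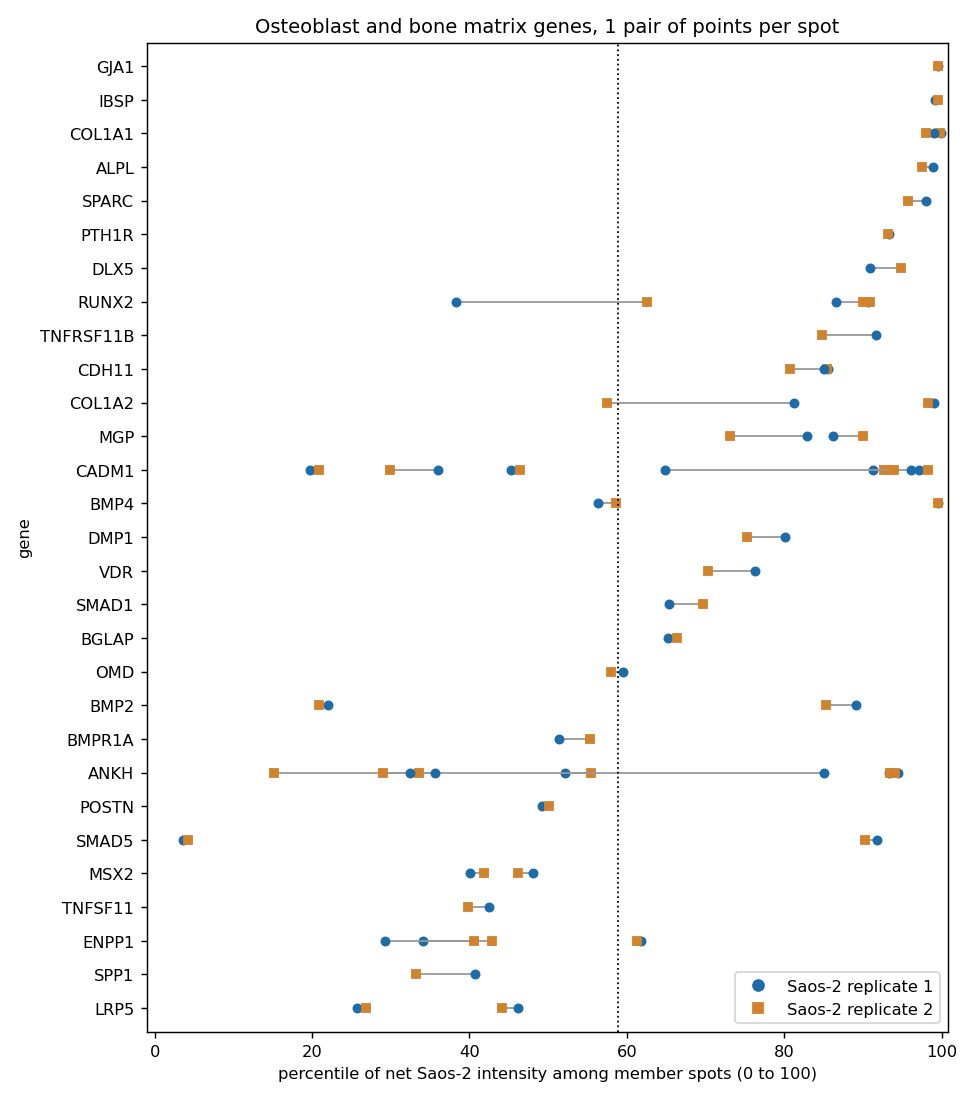
Percentile of net Saos-2 intensity (x axis) of every spot of 29 of the 30 osteoblast and bone matrix genes, with replicate 1 as circles and replicate 2 as squares joined by a line. The genes run from the highest level, GJA1 at 99.5, to the lowest, LRP5 at 35.7, and the dotted line is the median of all genes. Clones of 1 gene lie farther apart than the replicates for BMP4. The level of CADM1 was 64.8 on replicate 1 and 92.7 on replicate 2.

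The wider matrix list had a median of 88.4 over 33 genes, of which 16 were in the highest 10%. COL5A2, LUM and COL1A1 led it, followed by COL6A2 at 99.1 and COL6A1 at 98.5, chains of the beaded filaments of type VI collagen. PLOD2, which hydroxylates collagen lysines, was at 97.9, the protease MMP2 at 97.6 and its inhibitor TIMP2 at 98.7. The basement membrane collagens were lowest, with COL4A2 at 19.2 and COL4A1 at 2.92 from 2 spots. COL3A1, the fibrillar chain of soft connective tissue, was near the median gene at 58.9.

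The spread of these matrix genes between the arrays differed between the lines, which is given as a description with no test. Over all 84 spots of the matrix list, with no filter on level, the median absolute log2 difference between the arrays was 0.86 in Saos-2-2 and 0.28 in Saos-2. Over all 36227 spots it was 0.33 in Saos-2-2 and 0.19 in Saos-2. The wider spread in Saos-2-2 was not particular to the matrix list. The osteoblast list, which shares genes with it, had 0.96 in Saos-2-2 and 0.22 in Saos-2. Chondrocyte markers had 0.59 and 0.20, and the actin and tubulin cytoskeleton 0.56 and 0.22. Osteoclast, epithelial and germ cell markers had the smaller value in Saos-2-2. A difference of over 4-fold between the arrays occurred at 21 of the 84 matrix spots in Saos-2-2 and at 1 in Saos-2, beside 576 and 286 of all spots. In Saos-2-2, replicate 2 was the higher at 20 of the 21, and at 359 of the 576. The median log2 ratio of replicate 2 to replicate 1 for matrix spots was 0.69 in Saos-2-2 and -0.09 in Saos-2. Over all spots it was 0.20 and -0.08, and these net intensities were not normalised between arrays. As examples chosen for their gap, the stronger COL1A2 clone read 207 and 19154 in Saos-2-2, against 2576 and 1956 in Saos-2, and the most intense LUM spot read 483 and 12995 in Saos-2-2, against 6138 and 5131 in Saos-2. The lines carried different dyes on every array, so that line and dye cannot be told apart in this comparison of spreads.

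Genes commonly altered in osteosarcoma had a median of 68.0 over 39 genes, 4 of them in the highest 10%. MYC, the growth-promoting transcription factor, was highest, with 3 spots of 2 clones between 1496 and 2016 on replicate 1 and between 1386 and 1681 on replicate 2, and the last clone at 284 and 246. COPS3, a signalosome subunit, at 96.1, and CDK4, the kinase of the G1 phase, at 94.1, came after it. MDM2, a ubiquitin ligase, was at 77.7, with spots from 13.4 to 90.8. CDKN2A, the locus of p16 and ARF, read 243 and 390. CDKN1A, the inhibitor p21, read 247 and 174 by 1 clone and 121 and 132 by the other, near the medians of all spots. CDK6, the partner kinase of CDK4, ranged over 5 spots from percentile 29.8 to 76.9. TERT, the catalytic subunit of telomerase, was at 30.8. ATRX, the chromatin remodeller whose loss accompanies telomerase-independent telomere maintenance, was at 23.3, with its highest spot at percentile 28.2. TSG101 read 443 and 404 from 1 clone, at 81.0. RB1 was not analysed here.

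**Figure D5:**
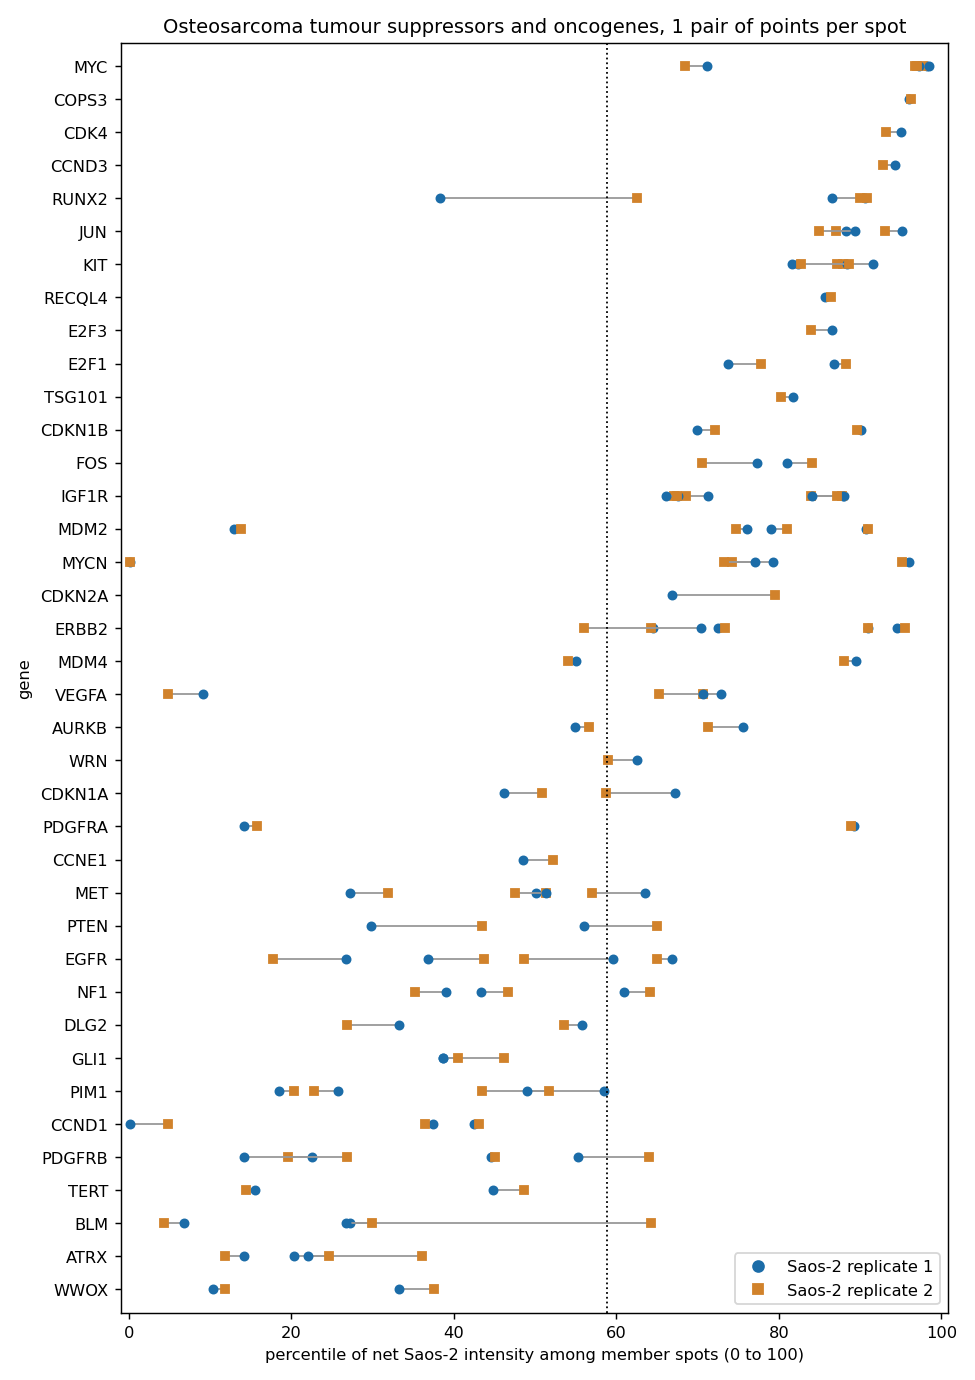
Percentile of net Saos-2 intensity (x axis) of every spot of 38 of the 39 tumour suppressors and oncogenes of osteosarcoma, replicate 1 as circles and replicate 2 as squares joined by a line. MYC is highest at 97.3, and the dotted line is the median of all genes, 58.9.

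Markers of other cell types were mostly low. Of 150 marker genes measured in 10 lists, 104 were below the median gene, 21 were in the lowest 10% and 6 in the highest. Blood cell markers had a median of 36.3, with the T cell gene CD3D at 6.73, and 7 of 26 lay in the lowest 10%. LAPTM5, a lysosomal protein of blood cells, was an exception at 98.9 (2716 and 2270), ahead of SPI1 at 84.5 and CD68 at 65.6. Germ cell markers had a median of 34.0, with ODF2 at 76.1, ZP3 at 75.7 and TEX14 at 73.9 highest and DDX4 lowest at 3.42. Liver markers had a median of 42.3, from FGA at 74.4, CPS1 at 63.7 and APOA2 at 63.0 to APOB at 13.5.

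Neuron and glia markers had a median of 44.7, with SYT1 at 93.3, NRGN at 78.4 and SNAP25 at 70.9 on top, and STMN2, which read 17 and 20, lowest at 0.892. Muscle markers had a median of 48.1, from DES at 85.4, NEB at 77.4 and TNNI1 at 71.6 to TTN at 15.8. Endothelial markers had a median of 48.7, from CLDN5 at 88.6, KDR at 67.5 and FLT1 at 58.5 to ESAM at 11.7. Epithelial markers had a median of 59.9, with KRT14 at 89.7 and MUC1 at 81.3 among the highest and KRT20 lowest at 12.9. Osteoclast markers had a median of 56.8 over 7 genes, with CSF1R at 89.9, MMP9 at 74.5 and ACP5 at 57.6 and a lowest gene, ATP6V0D2, at 25.4. Adipocyte markers had a median of 59.7 over 8 genes, with LPL (2796 and 1476, and 62.6 once its flagged spots are kept), CFD and LIPE (65.6, and 43.6 without spots marked as failed) highest and FABP4 lowest at 17.5.

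Chondrocyte markers split. COL9A3, a chain of cartilage type IX collagen, read 2141 and 1683, HAPLN1, which links aggrecan to hyaluronan, was at 97.5, and SOX9, the regulator of cartilage genes, at 84.0. COL10A1, the collagen of hypertrophic cartilage, read 2157 on replicate 1 and 579 on replicate 2. COL2A1, the main cartilage collagen, was at 26.4, the cartilage proteoglycan ACAN at 40.2 and COMP at 17.6, for a list median of 47.7. COL2A1 and ACAN, which define cartilage matrix, lay below the median gene, but each rested on 1 spot.

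No gene with at least 3 spots had all of them near background on both arrays. Only 0.781% of all the spots described were near background on both, after flags had taken out mostly dim spots. The absence of such a gene therefore says little. The lowest levels among the 2510 genes with at least 3 spots, named after their values were seen, were those of PLEKHH1 at 1.58, BHMT2 at 2.68 and CRISP3 at 3.45. BHMT2, a methyltransferase of liver and kidney, had its 4 spots between 25 and 38 on replicate 1 and between 17 and 54 on replicate 2. PLEKHH1 had 1 spot of 3 at 371 and 298, and FGF12, a relative of the fibroblast growth factors, had 1 of 5 at 1038 and 1235, so that even the lowest genes held clones that disagreed. Values at or below 20 on replicate 1 and 38.3 on replicate 2 have no meaningful order among themselves. The lowest genes here lie at or close to these values, the 95th percentiles of the negative control spots, most of which were flagged. These controls were the empty wells, the Alien spots and the 3 fluorescent protein spots. On replicate 2 the 38.3 falls among the fluorescent protein spots (38 to 43), whereas empty wells and Alien spots had medians of 3 and 7. The fluorescent protein spots read 1350 or more in Saos-2-2 on that array, so that 38.3 is not a limit set by spots free of signal. PRELP, VLDLR-AS1, SRARP, MECOM and SCGB2B2 were also among the 10 lowest, between 6.04 and 7.59.

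Disagreement between clones was also seen at the intense end. VIM read 10694 and 7278 by 1 clone and 6016 and 6408 by another, while its other 3 spots read 93 or less on replicate 1. TMSB10, a small actin-binding protein, read 6222 and 5740 by 1 clone and 53 and 45 by the other. PFN1, profilin, read 4982 and 4940, and 33 and 33 by the other. Each clone repeated between arrays, so that in these genes the spread lay between clones and not between replicates.

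Saos-2-2 was compared with Saos-2 on each clone's log2 ratio over the 2 arrays. None of 34670 clones passed an adjusted p under 0.05 (limma, Benjamini-Hochberg), or 0% called, and 8060 (23.3%) had an unadjusted p under 0.05. Among the 37 clones of the 30 most intense Saos-2 genes, 6 were higher and 20 lower in Saos-2-2 on both arrays, with a median log2 ratio of -0.26, beside 12193 higher and 12350 lower among all clones and a median of -0.01. The Saos-2 intensity that chose these genes is the denominator of the ratio, so that the choice and the ratio are not independent. Without background modelling and intensity-dependent correction, 2221 clones passed and the median of the 37 clones was -0.54, and with the deposited normalized ratios 2181 passed and it was -0.58.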

How the data were processed

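Total RNA of Saos-2-2 and Saos-2 cells was labelled and hybridised to 2 spotted cDNA arrays. The deposited tables give the scanner's intensity per spot and channel, the percent of pixels above background and a normalized log2 ratio, all made by the authors. Agilent Feature Extraction is the tool in the submitters' processing notes, given without a version. The series table was identical to the scanner's normalized log2 ratio of Saos-2-2 over Saos-2, and was used only as an alternative.

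Control spots and spots flagged on either array were left out, and net Cy3 intensity was ranked within each array (Python 3.11.15, pandas 2.3.3). Clones were named by gene ID or symbol through RefSeq names. The median over its spots gave the level of a gene. Genes were named by rule: the 30 highest, the 3 highest and the lowest of each of 23 lists, all osteoblast genes and 7 chosen genes, with any others named after their values were seen. The members and lists were chosen with earlier results of these data known, and no level carries a test. The ratio was tested with limma 3.58.1 after normexp background correction (offset 50), global loess and averaging of a clone's spots, over clones with at least 1 channel at 1.5 times background on both arrays. The scripts were tested on simulated data. The number of arrays limits precision, and p-values measure only the spread between 2 arrays. Some genes that the rule covers are not reported here and are not drawn in the plots of single genes, but count in the list totals and medians.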

Additional observations from a re-analysis of the deposited data

Results flagged for a closer look

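Spots outside the ranked clones carried signal. The spots named mitoch. cont., whose content the files do not explain, had a median net Saos-2 intensity of 1281 on replicate 1 and 1527 on replicate 2 over 76 usable spots. The 1 usable empty well read 38 and 52, and all 96 empty wells, flagged ones included, had medians of 2 and 3. Of the 5115 clone spots left out for a flag, 88 had a net intensity above the median of the ranked spots on both arrays.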

How the results depend on the processing

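The share of spots above background was 97.3%. It was 96.6% with the median foreground, 89.8% with spots of any flag kept and 82.5% at a ratio of 2. Above the 95th percentile of the negative control spots, the 3 fluorescent protein spots included, it was 88.4%. With either array alone it was from 97.9% to 98.6%. The median level of ribosomal proteins was 93.2 with the median foreground, 97.3 without spots marked as failed and 98.5 by the most intense spot of a gene, and lay between 95.9 and 96.7 on single arrays. That of osteoblast genes was 75.4, 76.6 and 88.2 under the same alternatives, 80.7 with any flag kept and 74.4 without the CGAP plates, and lay between 76.6 and 77.1 on single arrays. That of liver markers was 49.99 by the most intense spot and between 38.9 and 45.7 on single arrays. All 13 lists of cellular and bone functions stayed above all genes under the 8 alternatives run on levels, and 8 to 10 of the 10 marker lists stayed below. Taking the most intense spot moved 21 of 138 named genes by over 10 percentile points, among them VIM, ANKH (94.3), SMAD5 (91.0), BMP2 (87.2), FABP4 (93.6) and CPS1 (97.5), and no other alternative moved more than 5. With any flag kept, LPL was at 62.6, BMPR1A at 33.8 and the dim genes CD3D, COL4A1, COMP, DDX4, ESAM, KRT20, NDUFS6, PKM and STMN2 between 5.69 and 28.04. LIPE was at 43.6 without spots marked as failed, and VIM was at 68.8 and ATP6V0D2 at 8.28 without the CGAP plates. Chaperones had a lower median than ribosomal proteins with the median foreground (90.9), with any flag kept (96.1) and by the most intense spot (98.2). The count of clones that differed between Saos-2-2 and Saos-2 was 2221 with net intensity and median centring, 2181 with the deposited ratios and 0 with median centring after normexp or without the dim filter. The cause was not tested. The median log2 ratio of the 30 most intense genes was between -0.17 and -0.30 on single arrays. No paired analysis was possible because the levels concern 1 group, and the log2 ratios already set both lines against each other within each array. Depth is not given by intensities, and the order of spots near the negative controls is not meaningful.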

Other observations

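Cancer-testis antigens were read as a group chosen after their values were seen. Of 42 genes looked for, 19 were measured, 8 of them in the highest 10% of genes, and all 8 belonged to the MAGEA family on the X chromosome. These were MAGEA6, MAGEA8, MAGEA4 (3420 and 3076), MAGEA5P (3042 and 3020), MAGEA9B (2660 and 2586), MAGEA11 (2243 and 2170), MAGEA10 (909 and 1100) and MAGEA2 (580 and 1076). MAGEA genes are near-identical in sequence, so that 1 RNA may have reached several of these spots. Other families of the group were lower, with CTAG1A at 82.7, PRAME at 63.8, MAGEC1 at 55.0, SSX3 at 25.7 and XAGE3 at 4.96. Splicing and RNA-binding factors, likewise chosen afterwards, had a median of 91.9, from HNRNPA2B1 and HNRNPA1 (2669 and 2841) to HNRNPK, which read 84 and 72.

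Among the 362 most intense spots, 65 had no gene name in the sources used here, a smaller share than the 12454 of all 36227 spots. The third most intense of all spots was one of them, with 10648 and 14627. FAM216B came next, with 10567 and 12080 from a clone of the CGAP plates. KLK3, the prostate-specific antigen, was read by 5 spots, of which 2 stood at percentiles 99.9 and, for a clone marked as failed, 99.7 and the others at 80.5, 43.2 and 30.6. TNC, tenascin, read 9736 and 8269 by its most intense clone and was at 96.2 or above in all 3 clones. Of the 48 print blocks of the array, 1 had a median percentile of 23.7 over 669 spots, and the others lay between 38.9 and 58.2.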
